A study of Homo sapiens with 14 samples.

Results

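Start-site windows of 9 genes of simple epithelia were described: the keratins KRT8, KRT18, KRT19 and KRT20, the adhesion genes CDH1 and EPCAM, and the claudins CLDN3, CLDN4 and CLDN7. They were chosen by symbol and not by a rule on their values, though earlier results of these data were known. All 9 were found among the 28159 windows of the table. Each window is 1000 bp, so levels compare genes over the same length. The cells were wild-type HCT116, a single human colorectal carcinoma line, and every library came from electroporated cells. Reads were from chromatin immunoprecipitation (ChIP-seq) with the antibody 3E8 against RNA polymerase II carrying phosphate on Ser5 of its C-terminal repeats, and from inputs, the sheared chromatin before immunoprecipitation. DMSO cells received 0.1% DMSO, with 2 ChIP libraries. Nutlin3a cells received 10 µM of the MDM2 inhibitor, which stabilises p53, with 2 ChIP libraries. The DMSO and Nutlin3a groups with the bivalent peptide had 1 ChIP library each, both replicate 2, from cells electroporated with 10 µM peptide and given 200 nM more in the medium. All cells were kept for 3 h after electroporation, and each of the 4 conditions also had 2 inputs. Per the series, the question was how the peptide alters polymerase at start sites while Nutlin3a activates p53.

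Keratins are intermediate filament proteins that assemble from a type I and a type II partner. In simple epithelia such as the colon the type II keratin is KRT8, and its partners are the type I keratins KRT18, KRT19 and KRT20, the last of these typical of differentiated gut epithelium. E-cadherin, encoded by CDH1, joins neighbouring cells at adherens junctions, EPCAM is a surface adhesion protein of epithelia, and claudins form the strands of tight junctions. Ser5 is phosphorylated as polymerase leaves the promoter, so the antibody marks polymerase at and shortly after the start site and does not measure mature RNA.

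Window totals were 1290223 to 2240951 counts in the 6 ChIP libraries and 161719 to 359276 in the 8 inputs, so input values carry more counting error. Levels are in CPM, counts scaled to the library's total over all windows, with TMM factors for ChIP. As a check of the cell label, the median level in DMSO was 159.9 CPM for the 9 genes, against 5.76 CPM for 10 mesenchymal markers, 4.68 CPM for 10 blood cell markers and 5.92 CPM for 10 genes of other tissues. The collagen gene COL1A1 was at 6.73 and 10.8 CPM in the DMSO libraries, with a mean input of 42.8 CPM. The blood cell marker PTPRC was at 0.96 and 1.54 CPM, but its mean input was 0.0 CPM, so its low level says nothing about the cells. COL3A1 and AFP also had a mean input of 0.0 CPM and ALB 0.86 CPM. Poorly covered windows thus pull down the medians of these lists. The exception among blood markers was CD68, a lysosomal protein gene, at 196 CPM. Among genes of other tissues TNNT2 was at 49.4 CPM. The 9 genes were not uniform either. KRT20 was at 3.48 CPM, below the medians of these lists, and CLDN3 (29.3 CPM) and CDH1 (52.6 CPM) were not above input. Summed over its 10 markers, the mesenchymal list reached 162 CPM in Nutlin3a replicate 1 and 59.1 to 108 CPM in the remaining 5. The sources used here do not say whether replicates were separate cultures, so p-values reflect library-to-library spread, which may be technical. In bulk chromatin, fewer cells with polymerase at a gene and less polymerase per cell cannot be told apart.

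The windows were placed by genome direction and not by transcript direction. On the plus strand the most common placement held 300 bases before the start site and 700 from it on, and on the minus strand 700 before it and 300 from it on. In these placements the median DMSO level was 26.0 CPM for 6630 plus-strand windows and 27.96 CPM for 6747 minus-strand windows. KRT18, CDH1, EPCAM and CLDN4 are read from the plus strand, and KRT8, KRT19, KRT20, CLDN3 and CLDN7 from the minus strand, so levels of genes on opposite strands cover different stretches around the start. No window of the 9 overlapped another gene's window. The RefSeq gene KRT8 spans positions 52897191 to 52949860 of chromosome 12, which includes the KRT18 window and ends just past it. Since the counts carry no stated strand, polymerase on a long KRT8 transcript at the KRT18 window cannot be told apart from polymerase on KRT18. KRT8, KRT18 and KRT19 also have processed pseudogenes elsewhere in the genome, and how reads with several matches were counted is not given in the sources used here, so their levels carry that uncertainty.

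The 300 bases around the start site, 250 before it and 50 from it on, are shown for the 4 genes with an entry in the RefSeq promoter table used here (GRCh38.p14) whose start site fell inside the measured window, since they include the highest and lowest claudin levels and the gene at background, KRT20. Capitals mark exact matches, on either strand, to 6 motifs: the TATA box TATAAA, the E-box CACCTG bound by repressors of epithelial genes such as ZEB1 and SNAI1, the AP-1 site TGANTCA, the GC box GGGCGG, the CCAAT box CCAAT and the grainyhead site AACCNGTT.
CLDN4, chr7:73830746-73831045, plus strand: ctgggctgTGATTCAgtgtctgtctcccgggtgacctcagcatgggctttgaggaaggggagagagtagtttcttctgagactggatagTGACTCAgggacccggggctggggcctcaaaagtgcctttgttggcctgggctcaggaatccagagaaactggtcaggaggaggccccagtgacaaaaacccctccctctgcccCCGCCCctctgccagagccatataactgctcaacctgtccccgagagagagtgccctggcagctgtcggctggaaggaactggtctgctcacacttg
CLDN7, chr17:7262429-7262728, minus strand: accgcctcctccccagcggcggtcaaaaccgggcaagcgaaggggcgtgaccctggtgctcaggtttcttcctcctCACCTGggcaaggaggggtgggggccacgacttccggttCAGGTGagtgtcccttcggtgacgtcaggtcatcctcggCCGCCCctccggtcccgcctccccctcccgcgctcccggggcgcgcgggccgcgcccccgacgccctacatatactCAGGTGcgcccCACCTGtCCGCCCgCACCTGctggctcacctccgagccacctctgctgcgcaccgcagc
CLDN3, chr7:73770221-73770520, minus strand: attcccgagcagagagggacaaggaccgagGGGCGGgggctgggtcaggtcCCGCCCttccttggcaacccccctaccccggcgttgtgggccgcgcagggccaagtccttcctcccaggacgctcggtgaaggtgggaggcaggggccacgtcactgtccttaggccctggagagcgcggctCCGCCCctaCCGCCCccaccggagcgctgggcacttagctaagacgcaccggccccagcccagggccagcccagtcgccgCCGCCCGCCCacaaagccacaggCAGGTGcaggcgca
KRT20, chr17:40885193-40885492, minus strand: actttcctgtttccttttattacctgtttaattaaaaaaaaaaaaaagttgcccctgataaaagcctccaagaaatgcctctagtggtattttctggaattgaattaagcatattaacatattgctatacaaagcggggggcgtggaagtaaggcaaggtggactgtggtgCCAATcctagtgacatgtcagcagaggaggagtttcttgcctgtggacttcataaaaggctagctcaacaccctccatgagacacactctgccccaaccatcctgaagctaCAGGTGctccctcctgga

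CLDN4 held 2 AP-1 matches, TGATTCA and TGACTCA, and 1 GC box, where 7.71% of the 35116 promoters in the RefSeq table held an AP-1 match. CLDN7 held 5 E-box matches, 3 of them within 20 bases of the start site, and 2 GC boxes, where 20.6% of promoters held an E-box match and 44.95% a GC box. CLDN3 held 6 GC boxes, 2 of them overlapping, and 1 E-box match. KRT20 held 1 CCAAT box, found in 34.6% of promoters, and 1 E-box match. The letters of the TATA box (11.5% of promoters) and of the grainyhead site (1.73%) were absent from these 4 stretches. CLDN3 and CLDN7 were rich in G and C, at 72.0% and 71.7%, with CpG dinucleotides at 0.620 and 0.805 of the number base composition gives. CLDN4 was at 59.0% and 0.192 and KRT20 at 44.0% and 0.138, against medians of 58.7% and 0.579 over the table. These are descriptions of letters, and binding was not measured.

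The keratins held both ends of the range of levels. KRT19 (chr17:41528009-41529008) had the highest mean level in DMSO, with 292 and 354 CPM in DMSO replicates 1 and 2, 230.1 and 263 CPM in Nutlin3a, 262 CPM in DMSO with peptide and 269 CPM in Nutlin3a with peptide. KRT18 (chr12:52948818-52949817) followed with 236 and 343 CPM in DMSO, 216 and 289 CPM in Nutlin3a, and 295 and 282 CPM in the DMSO and Nutlin3a libraries with peptide. KRT8 (chr12:52904777-52905776), whose window starts 44041 bases before that of its partner KRT18, had 211 and 301 CPM in DMSO, 179 and 229 CPM in Nutlin3a, and 228 and 291 CPM with peptide. These 3 windows lay at percentile 98.59 or higher among the 25901 tested windows in every ChIP library. Their DMSO values overlapped, so their order was not larger than the spread between replicates. The ratio of KRT8 to KRT18 stayed between 0.775 and 1.03 over the 6 ChIP libraries.

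KRT20 (chr17:40884943-40885942) was at the other end, with 3.36 and 3.60 CPM in DMSO, 3.81 and 4.78 CPM in Nutlin3a, and 5.02 and 6.67 CPM in the DMSO and Nutlin3a libraries with peptide. These values rest on 5 to 15 counts per library. It passed the filter on low counts through its Nutlin3a library with peptide, and it lay below the median window in all 6 ChIP libraries, at percentiles 3.83 to 25.7. KRT19 was 40.4 to 98.4 times as high in the same libraries.

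Among the junction genes the claudins spread widely. CLDN4 (chr7:73830563-73831562) had 186 and 147 CPM in DMSO, 169.9 and 121 CPM in Nutlin3a, and 127 and 169 CPM in the DMSO and Nutlin3a libraries with peptide. CLDN7 (chr17:7262179-7263178) had 167 and 153 CPM in DMSO, 144 and 127 CPM in Nutlin3a, and 125 and 139 CPM with peptide, and the DMSO values of CLDN4 and CLDN7 overlapped. CLDN3 (chr7:73769971-73770970), a neighbour of CLDN4 whose window starts 60592 bases before it, had 28.4 and 30.3 CPM in DMSO, 31.2 and 22.1 CPM in Nutlin3a, and 24.6 and 23.6 CPM with peptide. CLDN4 exceeded CLDN3 by 4.85 to 7.15 times in each ChIP library, although their windows face opposite ways around the start.

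EPCAM (chr2:47368848-47369847) lay between the claudins, with 117 and 107 CPM in DMSO, 84.6 and 96.8 CPM in Nutlin3a, and 100.5 and 110.3 CPM with peptide. CDH1 (chr16:68736992-68737991) had 52.4 and 52.9 CPM in DMSO, 60.2 and 66.9 CPM in Nutlin3a, and 25.1 and 38.7 CPM with peptide. It varied most among the genes with more than 30 counts per library, by 2.67 times from its lowest to its highest ChIP library, against 1.33 to 1.68 times for the other genes except KRT20. The order CLDN7, EPCAM, CDH1, CLDN3, KRT20 held without overlap between the DMSO values of neighbours and in all 6 ChIP libraries. In DMSO with peptide, however, CDH1 and CLDN3 were almost equal, with 45 and 44 counts (25.1 and 24.6 CPM).

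**Figure D1:**
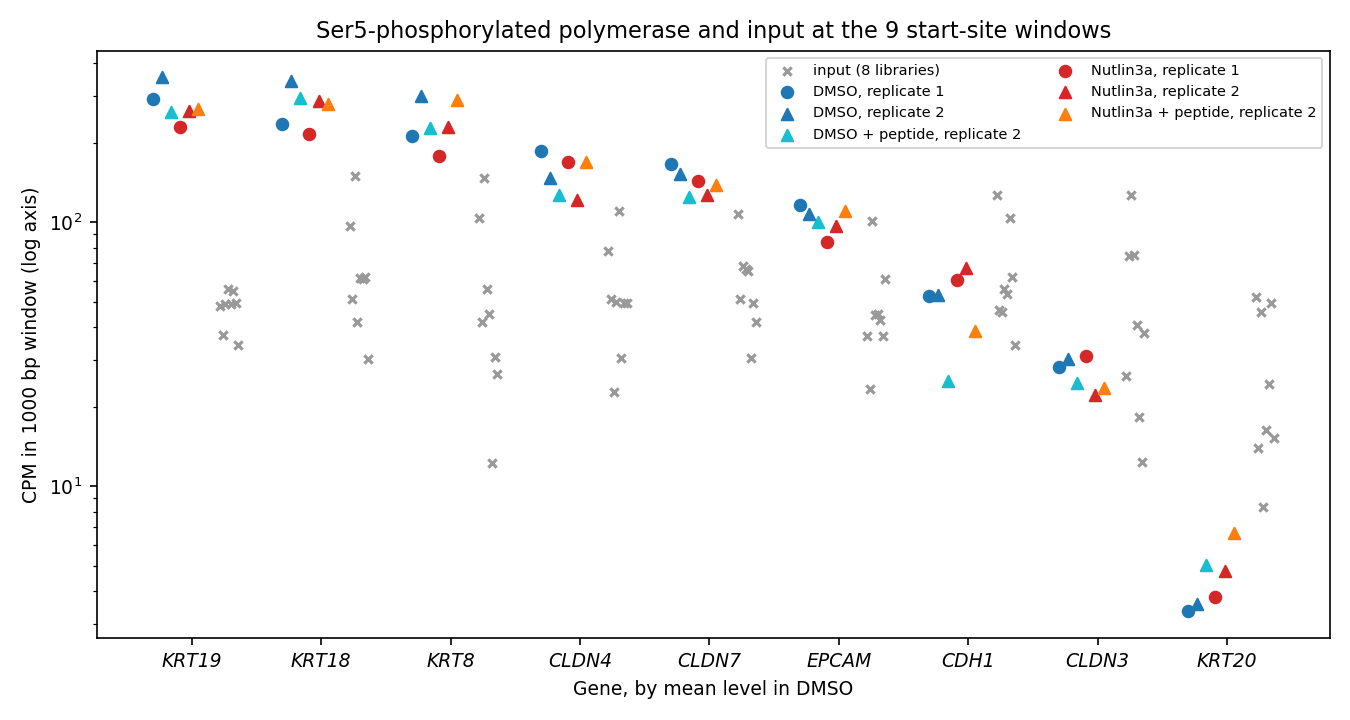
Level in CPM on a log axis for each gene in order of its mean in DMSO, with coloured circles (replicate 1) and triangles (replicate 2) for the 6 ChIP libraries and grey crosses for the 8 inputs. KRT19, KRT18, KRT8, CLDN4 and CLDN7 lie above all their inputs in every ChIP library, and KRT20 lies at 3.36 to 6.67 CPM.

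ChIP against input asked which of these windows held more polymerase signal than sheared chromatin gives. Signal was higher in ChIP at 6 of the 9 genes and lower at 1, where 23.3% and 17.3% of 21504 windows were higher and lower by the quasi-likelihood test of edgeR with Benjamini-Hochberg adjusted p-values. The 1 gene lower was KRT20, which entered this test only through its inputs, so its call is not read as a result. KRT19 was 6.77-fold over input (95% interval 4.90 to 9.33, adjusted p = 6.48e-11 by edgeR), KRT8 5.52-fold (3.69 to 8.24) and KRT18 4.88-fold (3.36 to 7.08). CLDN4 was 3.18-fold (2.21 to 4.57), CLDN7 2.71-fold (1.94 to 3.78) and EPCAM 2.52-fold (1.76 to 3.60). Every ChIP library lay above every input at KRT8, KRT18, KRT19, CLDN4 and CLDN7, where 6.74% of tested windows did so. EPCAM exceeded all inputs in 3 ChIP libraries. At KRT20 alone every ChIP library lay below every input, as at 5.05% of tested windows. The mean ChIP level was at least 2 times the mean input level at the same 6 genes, against 9.52% of tested windows.

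CDH1 and CLDN3 did not pass. CDH1 had a log2 difference from input of −0.36 ± 0.26 (SE, adjusted p = 0.274 by edgeR) and a mean input of 65.9 CPM. CLDN3 had −0.59 ± 0.32 (adjusted p = 0.138 by edgeR) and 51.6 CPM, and was called lower without input DMSO replicate 1 (−0.75) and with scaling by total counts (−0.80). KRT20 was lower in ChIP than in input (log2 −2.28 ± 0.54, adjusted p = 0.00225 by edgeR), with a mean input of 28.2 CPM. Its ChIP libraries reached at most 6.67 CPM and its inputs 52.1 CPM. It passed the filter for this fit only through the inputs, the group where it was high, so the test cannot serve as evidence here. Each library is scaled to its own counts in windows, so these differences rank windows and give no absolute enrichment. With total counts the split over all windows moved from 5018 higher and 3714 lower to 3726 and 5196, with DESeq2 to 3821 and 4983, and the median of all windows from −0.10 to −0.30 with total counts. Inputs varied: KRT8 ran from 12.2 to 147 CPM over the 8 inputs, CLDN3 from 12.4 to 127 CPM and KRT19 from 34.2 to 55.7 CPM. Replicate 1 of the DMSO input with peptide was the highest input at KRT8, KRT18, EPCAM and CLDN3, and without it 6 genes were still higher and 1 lower.

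None of the other keratins, claudins and cadherins listed was called higher than input. Windows low in ChIP entered the test against input only where an input was high, and windows low in both were left out. Counts of genes lower than input, in these lists and those below, therefore depend partly on the filter and are not read as results. Of 10 further epithelial keratins, 0 had a mean ChIP level at least 2 times input, 5 of the 9 tested against input were lower and 0 higher. The highest in DMSO were KRT23 (27.3 CPM), KRT80 (21.4 CPM) and KRT15 (18.2 CPM), whose window starts 9418 bases before that of KRT19. The 11 keratins of stratified epithelia had a median of 6.00 CPM, led by KRT16 (10.7 CPM), KRT13 (9.43 CPM) and KRT10 (7.82 CPM), with 3 of 7 lower than input. The 17 other claudins had a median of 6.78 CPM, led by CLDN23 (34.3 CPM), CLDN5 (25.9 CPM) and CLDN15 (19.7 CPM), with 0 of 13 higher than input and 3 lower. Among 11 other cadherins CDH3, the neighbour of CDH1, was at 50.3 CPM in DMSO, close to CDH1 itself, followed by CDHR2 (42.0 CPM) and CDHR5 (30.3 CPM), with 0 of 9 higher than input and 2 lower.

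The windows next to the 9 genes ran from far below the gene they flank to well above it. KRT23 lay above KRT20 (3.48 CPM), and ABHD11 above CLDN3 (29.3 CPM). Beside KRT8, the microRNA window MIR9898, which lies inside the KRT8 gene, was at 121 CPM, and past KRT18 the translation factor gene EIF4B was at 144 CPM. Beside KRT19, LINC00974 was at 1.72 CPM, and beside KRT20 the keratins KRT12 and KRT23 were at 4.46 and 27.3 CPM. TANGO6, past CDH1, was at 55.8 CPM, and beside EPCAM the windows EPCAM-DT and MIR559 were at 9.88 and 14.4 CPM. ABHD11 and METTL27, on either side of the CLDN3 and CLDN4 pair, were at 96.3 and 53.2 CPM. ELP5 and SLC2A4, on either side of CLDN7, were at 153 and 19.8 CPM.

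Other genes of the junctions ranged widely, from 2.49 to 92.3 CPM in DMSO for tight junction and polarity genes and from 9.39 to 159 CPM for adherens junction and desmosome genes. Of 14 tight junction and polarity genes, 3 were higher than input and 5 lower, and the highest levels were at PARD6B (92.3 CPM), MARVELD2, which encodes tricellulin (84.0 CPM), and TJP1, the scaffold ZO-1 (76.4 CPM). Of 14 adherens junction and desmosome genes tested against input, 6 were higher and 0 lower, led by PKP3, a desmosomal plakophilin (159 CPM), VCL, vinculin (116 CPM), and CTNNB1, beta-catenin (99.2 CPM). Of 17 epithelial regulators, 6 were higher and 3 lower, led by the splicing regulator ESRP2 (137 CPM), the transcription factor KLF5 (111 CPM) and the protease inhibitor SPINT2 (94.3 CPM). Of 7 tested repressors of epithelial genes, SNAI1 was higher than input (154 CPM in DMSO) and 3 were lower, and ZEB1 was at 44.7 CPM and SNAI2 at 17.2 CPM. Against input, 0 of 7 mesenchymal markers were higher and 3 lower, CD68 was the 1 of 4 tested blood markers that was higher and 1 was lower, and 0 of 7 genes of other tissues were higher and 3 lower. The highest in DMSO were ACTA2 (18.2 CPM), VIM (11.5 CPM) and COL1A1 (8.76 CPM) among mesenchymal markers, CD68 and CD14 (6.02 CPM) among blood markers, and TNNT2 (49.4 CPM) and NEUROD1 (7.99 CPM) among genes of other tissues.

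**Figure D2:**
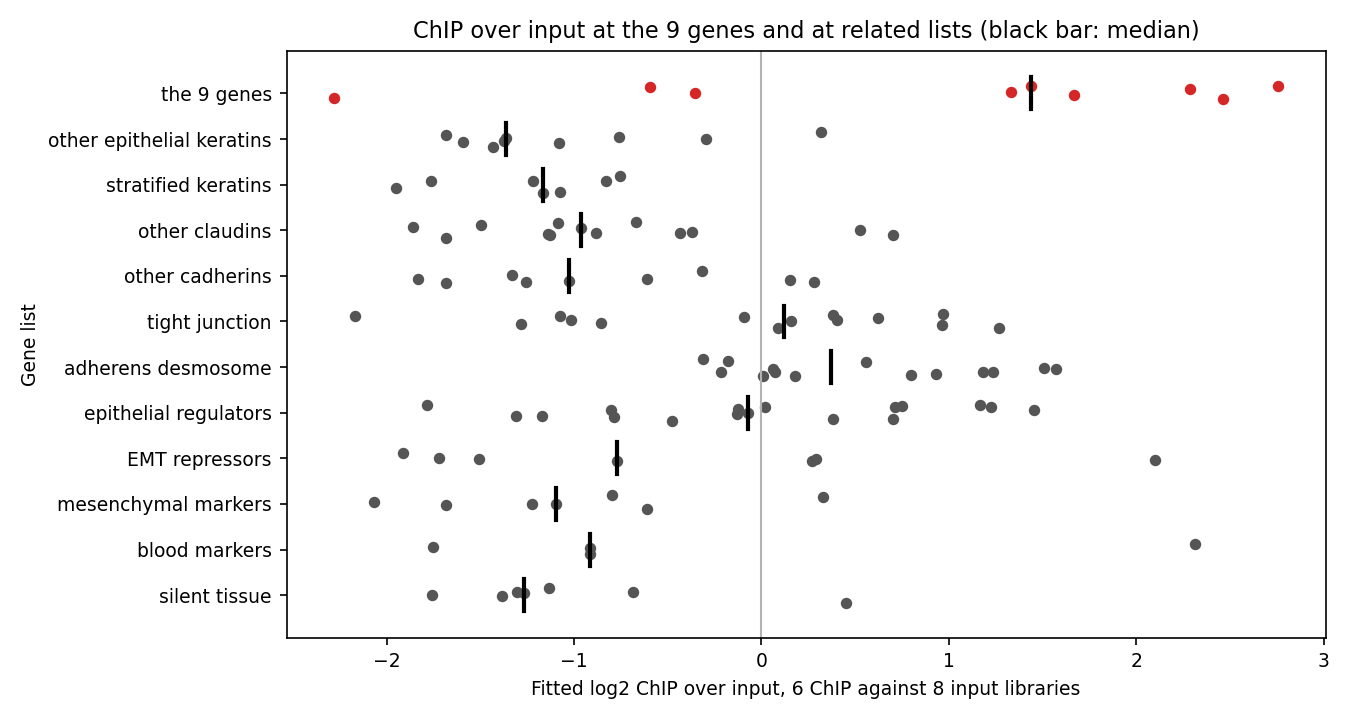
Fitted log2 of ChIP over input (6 ChIP against 8 input libraries) for each tested gene, by list, with a black bar at the list's median; vertical jitter carries no value. The 9 genes have a median of 1.44, with 6 genes at 1.33 to 2.76 and KRT20 at −2.28, and the other keratin, claudin and cadherin lists have medians of −1.36 to −0.96. Genes low in ChIP are shown only where an input was high, which lowers these medians.

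Nutlin3a against DMSO without peptide asked how polymerase at these genes responded as p53 was stabilised. No member passed, where 0.00772% of the 25901 tested windows were higher and 0.0% lower by edgeR's quasi-likelihood test. Fitted changes were negative at 7 genes and positive at CDH1 and KRT20, with a median log2 fold change of −0.20 against 0.044 over all windows. KRT19 was at −0.39 ± 0.23 (SE, n = 2 per group, adjusted p = 0.982 by edgeR), KRT8 at −0.33 ± 0.24, EPCAM at −0.30 ± 0.22 and CDH1 at 0.27 ± 0.24. Both Nutlin3a libraries lay below both DMSO libraries at KRT19, EPCAM and CLDN7, as at 15.7% of tested windows. They lay above both at CDH1 and KRT20, as at 16.1% of them. Leaving out 1 library moved these values: without DMSO replicate 2 the median of the 9 genes was −0.088, KRT8 was at −0.043 and KRT19 at −0.24, and without DMSO replicate 1 KRT8 was at −0.56 and KRT19 at −0.52. The KRT19 interval ran from 0.547-fold to 1.07-fold and the CDH1 interval from 0.848-fold to 1.72-fold.

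The signs rest on the scaling. With the authors' own constants per library all 9 changes were positive, with a median of 0.30, while the median of all windows moved from 0.044 to 0.53. Under both scalings the 9 genes' median lay below that of all windows. A change of constants shifts all windows by nearly the same amount, so the second scaling gives no separate support for this. Within replicate 1 the log2 ratio of Nutlin3a to DMSO had a median of −0.13 over the 9 genes, with 3 positive, and within replicate 2 −0.26, with 2 positive. All 2467 tested windows at or above 2 times input had medians of −0.19 and −0.075 in replicates 1 and 2. KRT18 turned from −0.20 to 0.10 without DMSO replicate 2, and CLDN4 and CLDN3 turned to 0.043 and 0.11 without Nutlin3a replicate 2.

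At KRT8 and KRT18, replicates of the same treatment differed by more than the fitted treatment change. KRT18 was lower in replicate 1 than in replicate 2 by a log2 ratio of −0.54 in DMSO and −0.42 in Nutlin3a, and KRT8 by −0.51 and −0.35. CLDN4 went the other way, at 0.34 and 0.48. In all, replicate 1 was below replicate 2 under both treatments at 5 of the 9 genes, against 29.0% of tested windows, and above it at 2, against 31.6%.

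With peptide, Nutlin3a against DMSO compared 1 library with 1 library and was not tested on its own. The log2 ratio was positive at 7 of the 9 genes, with a median of 0.15 against 0.0 over all windows. KRT20 is among the 7, but it entered the tested set only through its Nutlin3a library with peptide, so its sign is not read. CDH1 was the 1 gene past 1.5-fold, at 1.52-fold higher, where 10.0% of tested windows were that much higher and 11.4% that much lower. CLDN4 was 1.33-fold and KRT8 1.27-fold higher, and KRT19 (1.03-fold) and KRT18 (0.957-fold) were close to equal.

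**Figure D3:**
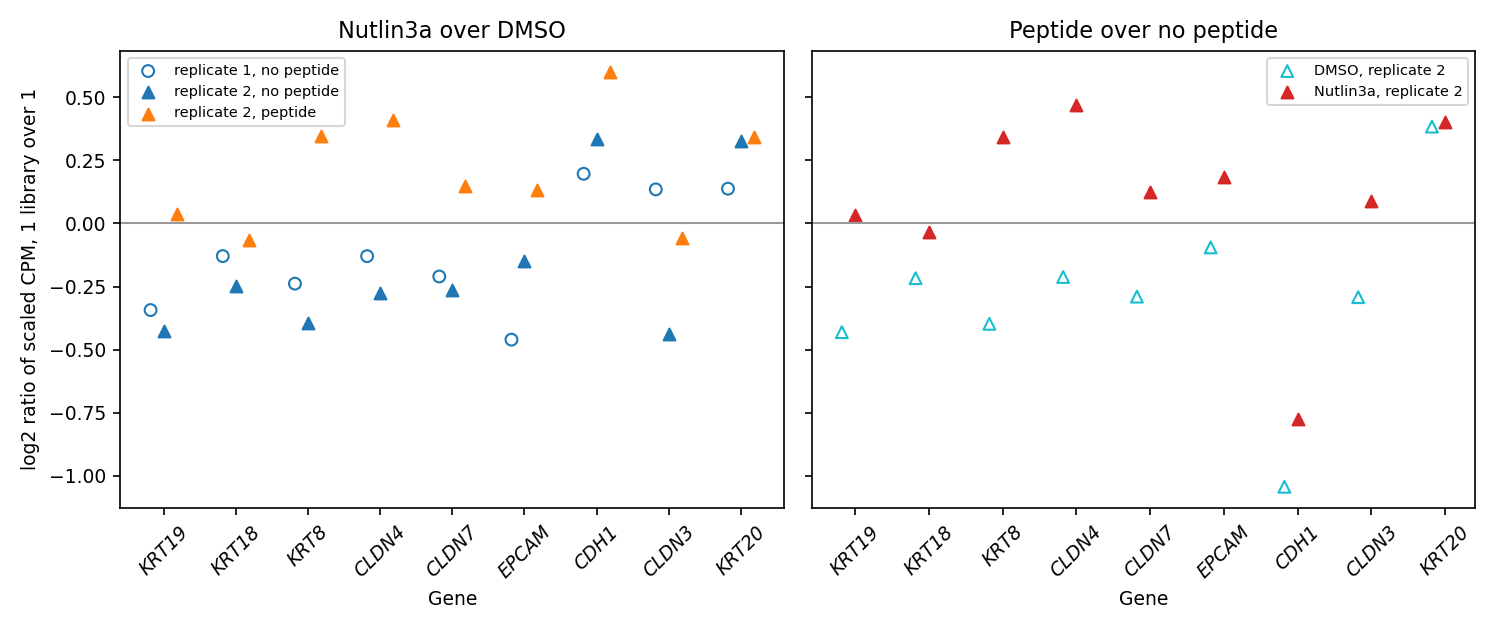
Log2 ratio of scaled CPM for each gene, 1 library over 1, for Nutlin3a over DMSO (left: replicate 1, replicate 2 and the peptide libraries) and for peptide over no peptide (right: in DMSO and in Nutlin3a, replicate 2). KRT8, CLDN4, CLDN7, EPCAM and KRT19 lie below 0 in both pairs without peptide and above 0 with it, and CDH1 lies at −1.04 and −0.77 for peptide over none.

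Subtracting the Nutlin3a response without peptide from that with it gave a positive difference at all 9 genes, with a median of 0.39 in log2 against −0.012 over all windows, and no member passed (0.0% of windows higher and 0.0% lower by edgeR). Fitting just the windows at or above 2 times input, 5 of the 6 members were positive, with a median of 0.26. Over all such windows the log2 ratio of Nutlin3a to DMSO also rose, from medians of −0.19 and −0.075 without peptide to 0.0 with it. The 9 values share the same 6 libraries and are not independent. KRT20, at 0.098 ± 1.57 (SE), entered the tested set only through its Nutlin3a library with peptide, so its sign is not read. KRT8 had the largest, 0.68 (95% interval −0.21 to 1.56), from a fitted −0.33 without peptide. CLDN4 had 0.61 (−0.26 to 1.48), EPCAM 0.44 (−0.35 to 1.22), KRT19 0.43 (−0.40 to 1.26) and CLDN7 0.39 (−0.40 to 1.18). The intervals of all 9 included 0. With the authors' constants 8 of the 9 differences were positive, CLDN3 being at −0.074, and KRT18 changed sign to −0.17 without DMSO replicate 2 and to −0.065 without Nutlin3a replicate 1, as CLDN3 did to −0.16 without Nutlin3a replicate 2. Without Nutlin3a replicate 1, which also turned KRT20 to −0.049, the median of the 9 was 0.34. Of the related lists, adherens junction and desmosome genes had a median difference of 0.34 (11 of 15 positive), epithelial regulators 0.26 (12 of 18) and tight junction genes 0.056 (9 of 14). Further keratins were at −0.33 (4 of 10), stratified keratins at −0.24 (4 of 11), other claudins at −0.079 (7 of 16), other cadherins at −0.40 (5 of 11) and repressors of epithelial genes at −0.099 (4 of 8). Mesenchymal markers were at −0.91 (1 of 9), blood markers at −0.59 (3 of 9) and genes of other tissues at −0.70 (2 of 8). The lists with a negative median had low levels, with median DMSO levels of 4.68 to 8.04 CPM. Such windows could pass the filter through a single high library. The summed mesenchymal list was highest, at 162 CPM, in Nutlin3a replicate 1, which enters this difference with a minus sign. The contrast between the lists is therefore not read as a result. In these lists 0 genes passed in this or the other comparisons of conditions.

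Peptide against no peptide gave CDH1, whose window was not above input, the largest fitted change of the 9 genes in size under each treatment. In DMSO, CDH1 was lower by a log2 fold change of −1.07 ± 0.32, or 0.478-fold (95% interval 0.297 to 0.768), and in Nutlin3a by −0.72 ± 0.30, or 0.608-fold (0.391 to 0.945). Neither passed over all windows, with adjusted p of 1.0 and 0.999 by edgeR, and 0.0% of windows were called in either direction. The counts were 45 and 87 in the DMSO and Nutlin3a libraries with peptide, against 79 to 112 in the 4 libraries without it. Both peptide libraries lay below all 4 others in CPM, as at 5.75% of tested windows. A test over both treatments, chosen after these values were seen, gave −0.89 ± 0.22 (unadjusted p = 0.000981 and adjusted p = 0.9999 by edgeR), and the adjusted p was 0.0465 without Nutlin3a replicate 1. Over the alternatives the adjusted p ran down to 0.0465 for both treatments, 0.403 for DMSO and 0.604 for Nutlin3a.

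Other values stand beside the CDH1 difference. The CDH1 window was not above input, its inputs ran from 34.2 to 61.8 CPM with peptide and from 46.6 to 127 CPM without it, and their part in the result was not tested. Both peptide libraries are replicate 2, and within replicate 2 the log2 ratios were −1.04 in DMSO and −0.77 in Nutlin3a. CDH3, the nearest window before CDH1, was at −0.21 and −0.018 for the peptide in DMSO and in Nutlin3a.

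Over the 9 genes the sign of most peptide changes differed between DMSO and Nutlin3a. In DMSO 7 of 9 genes were lower with peptide, with a median of −0.26 against −0.024 over all windows. With the authors' constants that median was −0.48 against −0.25 over all windows, and 8 of 9 genes were lower. In Nutlin3a 7 of 9 were higher, KRT20 among them, with a median of 0.16 against −0.024. CLDN4 was at −0.39 ± 0.29 in DMSO and 0.21 ± 0.29 in Nutlin3a, KRT8 at −0.17 ± 0.30 and 0.51 ± 0.30, and KRT19 at −0.30 ± 0.28 and 0.13 ± 0.28. No member passed in either (0.0% of windows higher and 0.0% lower by edgeR), and with the authors' constants 2 of 9 were higher in Nutlin3a, where the median of all windows moved to −0.33. KRT18 in DMSO, at 0.027, turned to −0.22 without DMSO replicate 1. KRT8 in DMSO turned to 0.12 without DMSO replicate 2, and in Nutlin3a CLDN4 and CLDN7 turned to −0.025 and −0.067 without Nutlin3a replicate 2, CLDN3 to 0.085 and KRT18 to −0.041 without Nutlin3a replicate 1. At KRT20 both peptide libraries lay above the other 4 (6.42% of tested windows did), but KRT20 entered the tested set only through its Nutlin3a library with peptide, so nothing is read from this or from its sign in the counts above. On 9 and 15 counts a difference was not detectable at this depth (0.52 ± 1.13 in DMSO and 0.62 ± 1.09 in Nutlin3a).

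**Figure D4:**
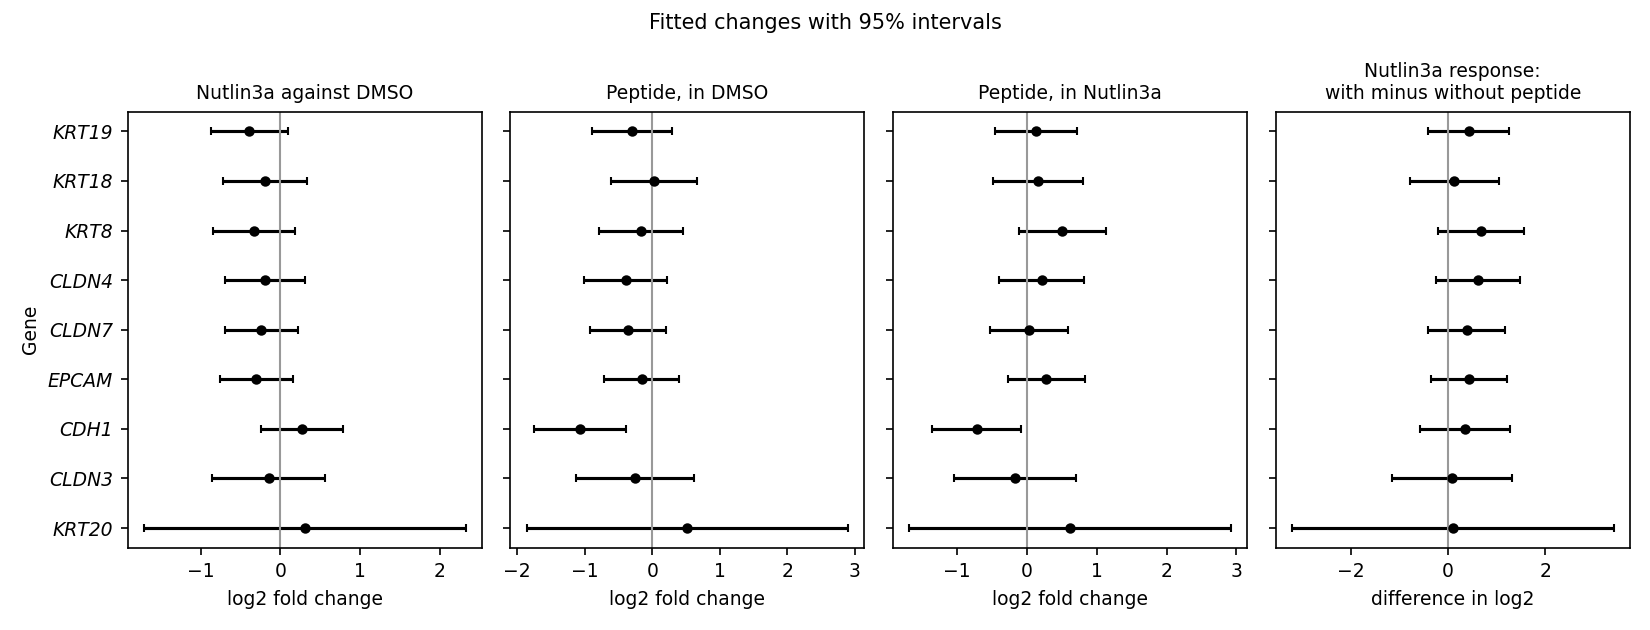
Fitted log2 changes (points) with 95% intervals (bars) for the 9 genes in 4 comparisons of conditions. The intervals of CDH1 for the peptide (−1.75 to −0.38 in DMSO and −1.35 to −0.082 in Nutlin3a) leave out 0 before adjustment over windows, and those of KRT20 are the widest.

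Over the 6 ChIP libraries the mean profile of the 9 genes, with each gene centred on its own mean log2 CPM, was highest in DMSO replicate 2 (0.14) and lowest in DMSO with peptide (−0.15). The 5 windows most like it, by Pearson r over 6 libraries among 2461 windows whose mean ChIP level was 2 times input or more, were SLC35A4 (0.959), TGS1 (0.940), NUFIP2 (0.933), RPLP1 (0.929) and AKAP8L (0.926). With 6 libraries and so many windows, 5% of them had an r above 0.693, and these values are a description. The 9 genes did not share 1 profile: the r of each with the mean of the other 8 ran from −0.44 (KRT20) and −0.17 (CDH1) to 0.52 (CLDN7) and 0.67 (KRT19).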

How the data were processed

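The authors deposited raw read counts in 1 window per gene for 6 ChIP and 8 input libraries, and a scaled signal for the ChIP libraries. The signal deposited by the authors equals the counts times 1 constant per library, from 0.595 to 1.82, and was used only as an alternative scaling. The genome build was hg38, per the submitters' processing notes. How reads were aligned and counted, and how the constants were derived, is not given in the sources used here.

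Groups came from sample titles. Counts were fitted with edgeR 4.0.16 in R 4.3.3 (glmQLFit and glmQLFTest) after filterByExpr (minimum count 10) and TMM scaling, with p-values adjusted by the Benjamini-Hochberg method over all tested windows at a threshold of 0.05. A model with 1 mean for each group, fitted to the 6 ChIP libraries (25901 windows, 2 residual degrees of freedom), served the comparisons of conditions, where the lone peptide libraries were assumed to vary like the pairs. A fit to all 14 libraries (21504 windows) served ChIP against input. Input CPM used total counts. Log2 ratios of 1 library over 1 used a prior count of 2. DESeq2 1.42.0 was an alternative. The code was tested on simulated data.

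Members and lists were chosen with earlier results of these data known. Named genes were the 9 members, adjacent windows, the 3 highest in DMSO of each list, any list gene past the threshold, and the 5 windows most like the members. Some genes under this rule are not reported here. PTPRC, COL3A1, AFP and ALB were named after their values were seen. The RefSeq promoter table used here gave a start site inside the window for 4 members, gave one outside it for KRT8, and has no entry for KRT18, KRT19, CDH1 and EPCAM. Sample columns left unused numbered 0.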

Additional observations from a re-analysis of the deposited data

How the results depend on the processing

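The calls of the 9 genes for Nutlin3a, for the peptide under each treatment and for the difference between the Nutlin3a responses were 0 in each direction under every alternative run: total counts, the authors' constants, no filter, the windows at or above 2 times input alone, DESeq2, the replicate block and each library of DMSO and Nutlin3a without peptide left out. With 1 or 2 libraries per group few changes could pass adjustment over all windows, so these zeros do not show that the genes were stable. The low ChIP counts of KRT20 (5 to 15 per library), and an input depth of 161719 to 359276 counts, limit what can be detected, and the peptide groups have 1 library each. Against input 6 genes were higher under every alternative run, and 1 was lower except with total counts (2, with CLDN3 at −0.80) and without input DMSO replicate 1 (2, with CLDN3 at −0.75). The gene lower in every run was KRT20, which entered these fits only through its inputs, except in the run with no filter. Leaving out 1 library gave 1 to 2 genes lower, 4065 to 5785 windows higher, and 2266 (without input Nutlin3a replicate 1) to 3745 windows lower than input.

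With the authors' constants the median of the 9 genes moved to 0.30 for Nutlin3a, −0.48 for the peptide in DMSO, −0.18 for the peptide in Nutlin3a and −0.35 for the peptide over both treatments. The same scaling turned Nutlin3a values to 0.11 (KRT19), 0.16 (KRT8), 0.28 (KRT18), 0.38 (CLDN4), 0.30 (CLDN7), 0.17 (EPCAM) and 0.42 (CLDN3). It turned the difference to −0.074 (CLDN3), the peptide in DMSO to −0.18 (KRT18), and the peptide in Nutlin3a to −0.18 (KRT19), −0.11 (KRT18), −0.20 (CLDN4), −0.33 (CLDN7) and −0.021 (EPCAM). Over both treatments it gave −0.075 (KRT8), −0.15 (KRT18) and −0.21 (EPCAM). Fitting just the 2467 windows at or above 2 times input, KRT18 turned to −0.025 for the difference and CLDN7 to −0.042 for the peptide in Nutlin3a.

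Same-numbered libraries of DMSO and Nutlin3a deviated together (Pearson r = 0.454 over 25901 windows), but with 2 groups of 2 the labels do not say that a number marks a shared culture. With the replicate block KRT18 turned to −0.19 and −0.063 for the peptide in DMSO and in Nutlin3a, and over both treatments KRT8 turned to −0.028, KRT18 to −0.13 and CLDN4 to 0.13. Windows called with the replicate block were 39 higher for Nutlin3a, 5 lower for the difference, 4 higher for the peptide in DMSO, 1 lower for it in Nutlin3a and 1 higher over both treatments, against 2, 0, 0, 0 and 0.

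Windows called higher for Nutlin3a were 6 with total counts, 0 with the authors' constants and 8 with DESeq2, and windows called lower with the constants were 55 for the peptide in Nutlin3a and 76 over both treatments. Leaving out 1 library gave 0 to 88 windows higher and 0 to 15 lower for Nutlin3a, 0 to 34 lower for the difference, 0 to 53 lower for the peptide in DMSO, 0 to 7 higher and 2 to 112 lower for it in Nutlin3a, and 0 to 9 higher and 14 to 185 lower over both treatments. The last comparison called 0 to 1 of the 9 genes lower, CDH1 without Nutlin3a replicate 1. The cause of these shifts was not tested. At an unadjusted p under 0.05 by edgeR, 329 windows were higher and 272 lower for Nutlin3a, 107 and 165 for the difference, 178 and 215 for the peptide in DMSO, 146 and 486 in Nutlin3a, and 188 and 616 over both treatments. By DESeq2 with adjustment all but the first had 0 calls.

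Values of single genes with 1 library left out ranged as follows. For Nutlin3a KRT18 ran from −0.44 to 0.10, CLDN4 from −0.46 to 0.043 and CLDN3 from −0.41 to 0.11. For the difference KRT18 ran from −0.17 to 0.38, KRT20 from −0.049 to 0.26 and CLDN3 from −0.16 to 0.34. For the peptide in DMSO KRT18 ran from −0.22 to 0.33 and KRT8 from −0.40 to 0.12. For the peptide in Nutlin3a KRT18 ran from −0.041 to 0.37, CLDN3 from −0.42 to 0.085, CLDN4 from −0.025 to 0.47 and CLDN7 from −0.067 to 0.12. Over both treatments KRT18 ran from −0.029 to 0.25 and CLDN4 from −0.21 to 0.033.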
